A study of Hydrangea macrophylla with 27 samples.

Results

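Gibberellin genes were followed in whole stems of Hydrangea macrophylla, an ornamental shrub, after the stems had been bent mechanically. They are 11 assembled transcript clusters whose best Swiss-Prot match carries 1 of 7 gene names: GA20OX2 (2 clusters) for hormone synthesis, CYP714A1 (1 cluster) for hormone turnover, GID1A (2) for the receptor, GAI (2) and GAI1 (1) for the DELLA repressors, and GASA14 (1) and SN1 (2) for small gibberellin-regulated peptides. The series holds 142016 clusters, 32636 of them with a Swiss-Prot match. A member had to have a total of at least 100 expected counts over the 27 libraries. Of 12 clusters with these names, 1 was left out, a GASA14 match (Cluster-29828.0) with a total of 83, and the lowest member was a GA20OX2 match (Cluster-9242.27175) with 1069. All 11 members passed the filter on low counts, which left 52918 clusters for the tests.

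The plants were wild-type micro-cuttings of the cultivar 'Wudu', potted and kept in a growth chamber under light for 16 h per day. On a single morning, from 9 a.m., the treated plants were bent 12 times by a moving plastic curtain to an angle of 30 degrees. Stems were harvested 15 min before this (before bending), and bent and unbent stems 1, 3, 24 and 72 h after it. These 9 groups have 3 libraries each, 27 in all, which the series calls biological replicates. All are of 1 cultivar and of whole stem, and the sources used here do not say whether a library pools several plants. Unbent stems of 1 and 3 h were cut later in the day than those before bending, so time since the start and hour of the day cannot be told apart in them.

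Gibberellins are plant hormones that promote stem elongation. The late steps of their synthesis are made by soluble oxidases such as GA20OX2, and other oxidases and some cytochrome P450 enzymes inactivate them. The hormone binds the receptor GID1, the complex binds DELLA proteins such as GAI, and an F-box protein (GID2 in rice, SLY1 and SNE in Arabidopsis) marks the DELLA protein for breakdown, which releases growth-promoting transcription. GASA peptides, snakins among them, are short secreted cysteine-rich peptides, and the level of many of their transcripts responds to gibberellin.

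The libraries held 14353100 to 23113800 expected counts each (rounded totals, median 17221600). Clusters annotated as ribosomal RNA took 2.68 to 8.42% of the counts (median 3.28%), and 3 libraries were above 1.5 times that median, namely replicate 2 of the stems before bending, of bent stems at 1 h and of bent stems at 3 h. Without these 3 libraries, the number of members that passed was again 4 at 1 h and 4 at 3 h, and 0 in place of 1 at 24 h. As markers of stem tissue, 16 xylem clusters summed to 725 to 1472 CPM (expected counts relative to library size, scaled by edgeR's TMM method), 8 phloem clusters to 508 to 709 CPM, 12 epidermis clusters to 89.1 to 191 CPM and 8 meristem clusters to 123 to 179 CPM over the 27 libraries. No cluster was named for the xylem markers IRX15 and VND7, the phloem markers PP2B10 and APL, the epidermis markers PDF2, KCS6, KCS10 and CER1, or the meristem markers STM, KNAT1, WUS and CYCB1-1. In a whole stem, fewer cells of a type and less RNA per cell cannot be told apart.

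Names come from the closest Swiss-Prot protein, which was of Arabidopsis for 7 of the 11 members, and for SN1 to potato, for 1 GAI cluster to tomato and for GAI1 to grape. Clusters of the same name may be paralogs or parts of 1 transcript and may share reads, so their split is uncertain. The GASA14 cluster is 2044 bases long and its protein-domain annotation names an alpha amylase catalytic domain, while its best match in the NCBI protein database is a snakin of poplar. Domain annotations of other members also differed from their names. They were Salmonella outer protein D and GLE1-like protein for GAI1, and immortalisation up-regulated protein and HD-ZIP protein N terminus for the GAI clusters. The GID1A cluster Cluster-9242.54359 had a seipin domain beside a hydrolase fold. Compared per length (FPKM), levels before bending spanned from the GASA14 cluster, at 1.16 ± 0.132 FPKM (mean ± SD, n = 3), to GAI1 at 71.2 ± 5.10 FPKM. The larger GAI cluster (Cluster-9242.52858) followed at 45.7 ± 5.34 FPKM and the larger GID1A cluster (Cluster-9242.29706) at 20.7 ± 1.35 FPKM. Both GA20OX2 clusters, at 1.5 ± 0.419 and 2.50 ± 0.990 FPKM, lay near the bottom, and their libraries overlapped.

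**Figure D1:**
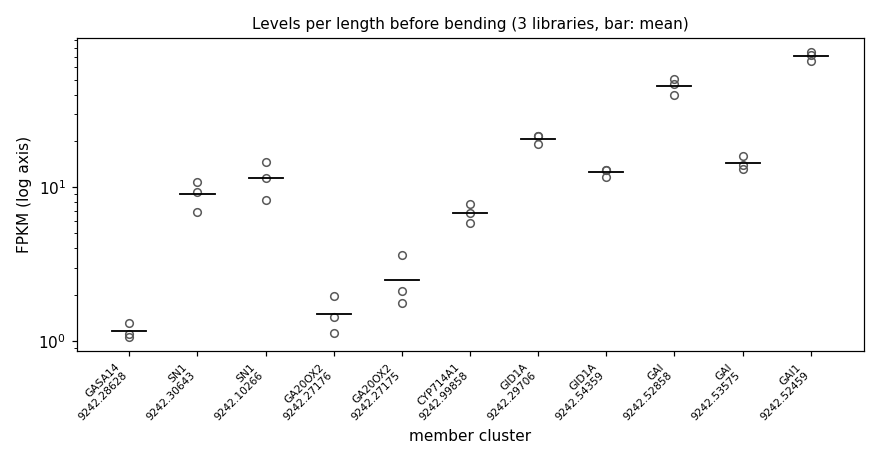
Level per length (FPKM, log axis) of the 11 member clusters in the 3 libraries before bending. Circles are libraries and bars are means; the DELLA cluster GAI1 is highest (mean 71.2 FPKM) and the GASA14 cluster lowest (mean 1.16 FPKM).

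The members were proposed from the differences between bent and unbent stems in these same libraries. A cluster is said to pass where the Benjamini-Hochberg adjusted p of edgeR's quasi-likelihood test, over all 52918 clusters, is below 0.05. For members, the differences at 1, 3 and 24 h, and those of unbent stems at 1, 3 and 24 h from before bending, which share the unbent libraries, are given as a description: no p is printed, and whether a member passed there only records on which side of the threshold it fell. The members' comparisons at 72 h are the ones given as tests. Bent against unbent, 4 of the 11 members passed at 1 h (2 higher, 2 lower), where 1.93% of all clusters passed (1.11% higher, 0.814% lower). At 3 h 4 members passed (all higher), where 5.08% of all clusters did (3.05% higher, 2.03% lower). At 24 h 1 member passed (higher), where 0.0246% of all clusters did (0.0113% higher, 0.0132% lower), and at 72 h none did, where 0% did. Because the members were chosen on these contrasts, the counts say nothing about how gibberellin genes compare with others. The share of passing clusters that were higher at 1 h was 57.8% here, 71.8% in limma-voom and 31.0% with limma on log2(FPKM + 0.1).

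**Figure D2:**
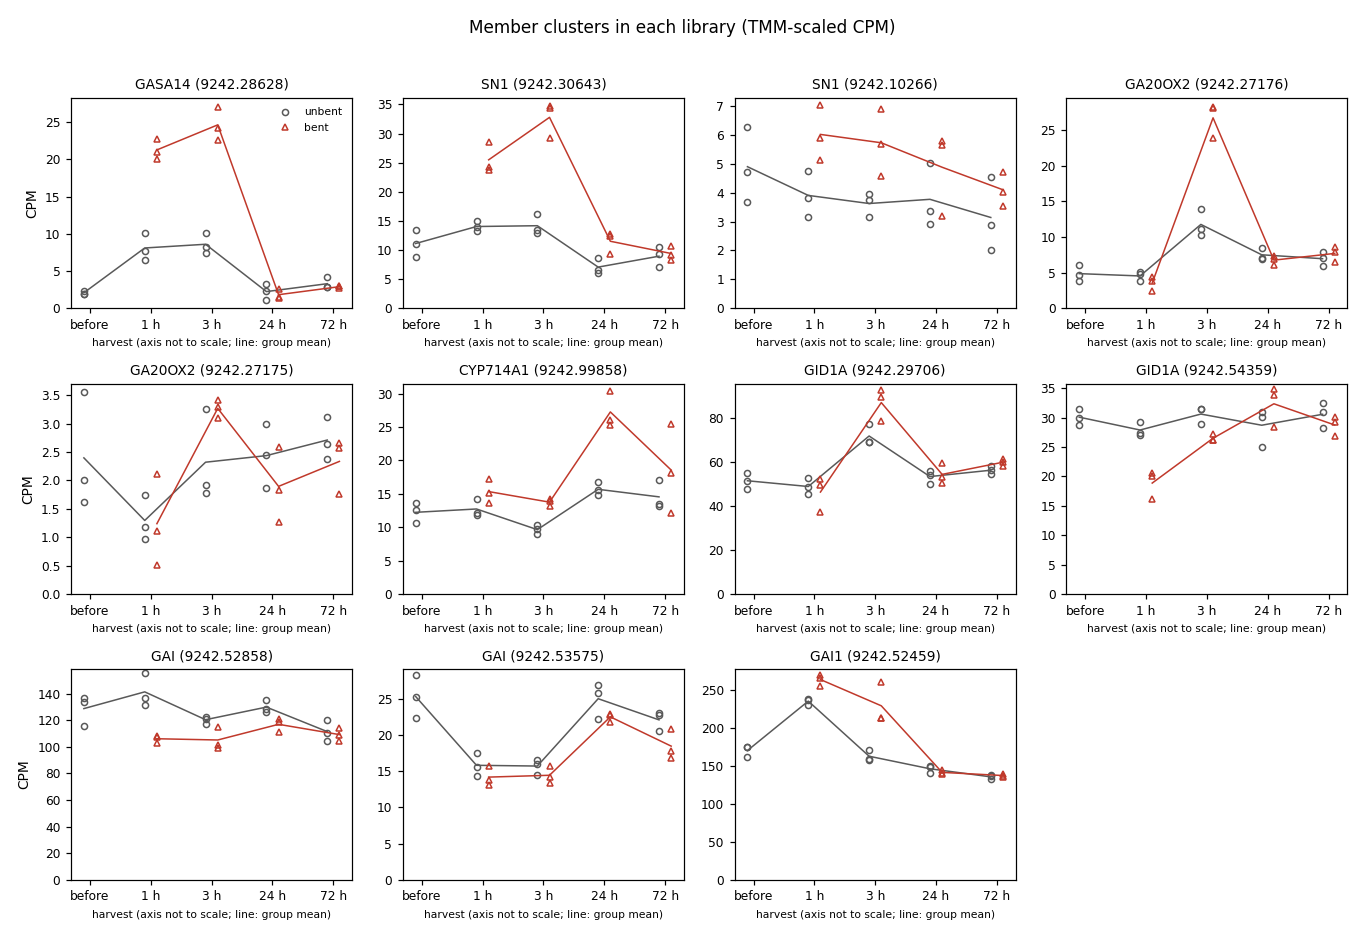
TMM-scaled CPM of the 11 member clusters by harvest, from before bending to 72 h, with 1 panel for each cluster, linear axes from 0 and time not to scale. Circles are unbent and triangles bent libraries, and lines join group means; bent libraries of GASA14 lie at 20.1 to 27.0 CPM at 1 and 3 h and at 1.41 to 2.96 CPM at 24 and 72 h.

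GA20OX2, an oxidase of the late steps of gibberellin synthesis, was highest at 3 h in bent stems. The larger cluster (Cluster-9242.27176) stood at 4.69, 3.75 and 6.09 CPM in replicates 1, 2 and 3 before bending. At 1 h it was at 3.74, 4.79 and 5.03 CPM in unbent and 2.39, 3.86 and 4.31 CPM in bent stems, so that these groups overlapped. At 3 h it was at 14.0, 11.1 and 10.2 CPM in unbent and at 23.9, 28.1 and 28.3 CPM in bent stems, and every bent library lay above every unbent one. The log2 fold change, bent minus unbent, was -0.35 ± 0.20 (SE) at 1 h and 1.19 ± 0.16 at 3 h. The 3 h unbent stems in turn were 1.27 ± 0.18 above the stems before bending on the log2 scale, so the level was higher at that harvest without bending as well. By 24 h unbent stems held 6.96, 8.42 and 7.11 CPM and bent stems 5.99, 7.36 and 6.88 CPM, and at 72 h unbent stems held 7.85, 7.03 and 5.94 CPM and bent stems 8.60, 6.54 and 7.93 CPM. Bent and unbent libraries overlapped at both late times. In the order of group means, bent stems of 3 h came first and unbent stems of 3 h next, with no overlap between them or with any later group, and the other 7 groups ran from 7.69 down to 3.52 CPM.

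In unbent stems of 24 h the larger GA20OX2 cluster was 0.62 ± 0.18 above the stems before bending on the log2 scale, with every library of 24 h above every library before bending. This passed with all libraries, but not without replicate 2 before bending (0.47), replicate 1 before bending (0.59) or replicate 2 of the unbent stems at 24 h (0.52). At 72 h the difference, given as a test, was 0.51 ± 0.18 and did not pass (edgeR adjusted p of 0.0629). The smaller GA20OX2 cluster (Cluster-9242.27175) was sparse, at 0.503 to 3.56 CPM over the 27 libraries. It passed in none of the comparisons, and its bent minus unbent log2 fold change at 3 h was 0.48 ± 0.33.

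CYP714A1 belongs to a family of cytochrome P450 enzymes, some of which inactivate gibberellins in Arabidopsis and rice. It was the 1 member that passed at 24 h. Its cluster (Cluster-9242.99858) held 10.6, 12.5 and 13.6 CPM before bending. Unbent stems held 12.1, 11.8 and 14.2 CPM at 1 h and 10.3, 8.95 and 9.68 CPM at 3 h, while bent stems held 17.3, 13.6 and 15.1 CPM at 1 h and 13.1, 14.3 and 13.9 CPM at 3 h. The groups overlapped at 1 h and were apart at 3 h, where the log2 fold change was 0.51 ± 0.17 and did not pass. At 24 h unbent stems held 14.8, 16.7 and 15.5 CPM and bent stems 26.0, 30.5 and 25.3 CPM, a log2 fold change of 0.80 ± 0.16, which is 1.74-fold. This was the highest group mean of the 9, and its libraries overlapped only those of the next group, bent stems at 72 h. There the 3 bent libraries spread from 12.1 to 25.5 CPM around unbent libraries of 13.1 to 17.0 CPM, and the log2 fold change of 0.34 ± 0.16 did not pass (edgeR adjusted p of 0.898).

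The 24 h difference of CYP714A1 lay at the edge of the threshold. Without replicate 2 of the bent stems it was 0.72, and without replicates 1, 2 or 3 of the unbent stems 0.77, 0.85 and 0.79. It passed in none of these, nor without replicate 3 of the bent stems (0.85) or without the 3 libraries rich in ribosomal RNA (0.80), and its size moved by less than 1.5 times in all. Xylem marker clusters summed to 834 ± 94.8 CPM in bent and 974 ± 200 CPM in unbent stems at 24 h, and phloem marker clusters to 625 ± 20.9 and 595 ± 31.1 CPM. None of the 16 xylem, 8 phloem, 12 epidermis and 8 meristem clusters passed at 24 h, where 0.0246% of all clusters did. Their median log2 fold changes, bent minus unbent, were -0.36, 0.13, -0.08 and 0.18 in that order. The part of these tissues in the difference was not tested.

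Some marker clusters passed in other comparisons in which members differed. Bent against unbent, none of the 4 marker lists had a passing cluster at 1 h, where 1.93% of all clusters passed. At 3 h 2 of 16 xylem clusters passed, both higher in bent stems, where 5.08% of all clusters did. The median log2 fold change of the 16 was -0.24 there, and their sum was 971 ± 100 CPM in bent and 953 ± 52.3 CPM in unbent stems. The 12 epidermis clusters summed to 162 ± 4.83 CPM in bent and 155 ± 17.9 CPM in unbent stems at 1 h. At 3 h they summed to 178 ± 12.6 and 160 ± 8.74 CPM, and no epidermis cluster passed at either time. Bent and unbent libraries overlapped in this sum at both times. The sum was 134 ± 11.1 CPM before bending, and its group means at 24 and 72 h were 107 to 127 CPM. Its 4 highest group means came in the same order as those of GASA14. In unbent stems against before bending, 3 of 16 xylem and 4 of 12 epidermis clusters passed at 1 h, all higher, where 10.3% of all clusters did. At 3 h 2 xylem and 3 epidermis clusters passed, all higher, and 1 of 8 phloem clusters, lower, where 14.1% of all clusters did. The median log2 fold change of the 16 xylem clusters was -0.28 there. At 24 h 3 xylem clusters (2 higher, 1 lower) and 1 of 8 meristem clusters (higher) passed, where 8.4% of all clusters did. At 72 h 3 xylem clusters (1 higher, 2 lower) and 1 epidermis cluster (lower) passed, where 10.3% of all clusters did. The part of these tissues in the members' differences was not tested.

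GID1A, the gibberellin receptor, was represented by clusters that differed from each other in time course. The larger (Cluster-9242.29706) held 47.8, 55.2 and 51.2 CPM before bending. At 1 h it held 52.7, 48.5 and 45.2 CPM in unbent and 37.2, 52.3 and 49.3 CPM in bent stems, with overlap. It was highest at 3 h, at 77.4, 69.0 and 68.8 CPM in unbent and 78.4, 89.6 and 92.8 CPM in bent stems. These groups did not overlap, but the log2 fold change of 0.28 ± 0.09 did not pass. Unbent stems at 3 h were 0.48 ± 0.09 above stems before bending. At 24 and 72 h its values lay between 50.0 and 61.4 CPM. At 72 h the bent libraries, at 61.4, 59.8 and 58.3 CPM, lay above the unbent ones, at 57.9, 54.5 and 56.2 CPM, by 0.09 ± 0.09 on the log2 scale, which did not pass (edgeR adjusted p of 0.978).

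The smaller GID1A cluster (Cluster-9242.54359) was lower in bent stems at 1 h. It held 31.5, 28.8 and 30.0 CPM before bending, 29.2, 27.4 and 27.1 CPM in unbent stems at 1 h and 16.1, 19.997 and 20.5 CPM in bent stems at 1 h, a log2 fold change of -0.56 ± 0.10. At 3 h the bent libraries, at 26.2, 26.1 and 27.2 CPM, were still below the unbent ones, at 31.5, 28.9 and 31.5 CPM, by -0.21 ± 0.10, which did not pass. At 24 h unbent stems held 31.0, 30.1 and 25.0 CPM and bent stems 33.8, 28.4 and 34.9 CPM, and at 72 h they held 30.9, 32.5 and 28.3 CPM against 29.3, 30.1 and 26.9 CPM. Both late times overlapped. Bent stems of 1 h were the lowest of the 9 groups, at 18.9 ± 2.41 CPM, and the other 8 group means lay between 26.5 and 32.4 CPM.

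DELLA proteins repress gibberellin responses, and the clusters named for them did not move alike. GAI1 (Cluster-9242.52459), the most abundant member, held 174, 162 and 174 CPM before bending. At 1 h it held 237, 230 and 238 CPM in unbent and 270, 265 and 255 CPM in bent stems, and at 3 h 171, 159 and 157 CPM in unbent and 260, 213 and 213 CPM in bent stems. Bent libraries lay above unbent ones at both times, with log2 fold changes of 0.16 ± 0.06, which did not pass, and 0.49 ± 0.06. In unbent stems the cluster was thus near its starting level again at 3 h, with a log2 difference of -0.07 ± 0.06, after having been 0.47 ± 0.06 above it at 1 h. At 24 h unbent stems held 149, 140 and 148 CPM and bent stems 139, 144 and 140 CPM, and at 72 h 137, 136 and 132 CPM and 137, 139 and 135 CPM. The bent minus unbent log2 fold change at 72 h was 0.02 ± 0.06, with a 95% interval from -0.11 to 0.14.

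Unbent stems of 24 and 72 h held less GAI1 than stems before bending. The log2 difference was -0.22 ± 0.06 at 24 h. At 72 h it fell by 0.33 ± 0.06 (edgeR adjusted p of 0.000321), and no late library reached the level of any library before bending. The 24 h difference passed with all libraries but not without replicate 1 or 3 before bending or replicate 2 or 3 of the unbent stems at 24 h, where the difference lay between -0.23 and -0.19. The 72 h call passed with each library left out in turn. In that comparison 10.3% of all clusters passed.

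The larger GAI cluster (Cluster-9242.52858) was lower in bent stems at 1 h. It held 133, 116 and 137 CPM before bending, 156, 132 and 137 CPM in unbent and 103, 108 and 108 CPM in bent stems at 1 h, a log2 fold change of -0.41 ± 0.07. At 3 h it held 123, 121 and 118 CPM in unbent and 115, 99.1 and 102 CPM in bent stems, at -0.20 ± 0.07, and at 24 h 128, 135 and 126 CPM against 119, 111 and 121 CPM, at -0.15 ± 0.07. The groups did not overlap at 3 and 24 h, and neither difference passed. At 72 h the libraries overlapped, at 110, 120 and 104 CPM in unbent and 109, 105 and 114 CPM in bent stems. Against before bending, unbent stems of 72 h fell by 0.21 ± 0.07 (edgeR adjusted p of 0.0492). The libraries of these groups overlapped, and the call was lost without replicate 1 or 3 before bending (-0.18 and -0.16) and without replicate 1 or 3 of the unbent stems at 72 h (-0.20 and -0.16).

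The other GAI cluster (Cluster-9242.53575) was lower at 1 and 3 h with or without bending. It ranged from 13.1 to 28.3 CPM over the 27 libraries, with means of 25.3 ± 2.97 CPM before bending, 15.8 ± 1.62 and 15.7 ± 1.06 CPM in unbent stems at 1 and 3 h, and 14.2 ± 1.32 and 14.4 ± 1.19 CPM in bent stems. The unbent stems of 1 and 3 h differed from the stems before bending by -0.68 ± 0.11 and -0.69 ± 0.11 on the log2 scale. Bent minus unbent, it passed at no time, and its 72 h log2 fold change was -0.26 ± 0.11 (edgeR adjusted p of 0.871), the lowest of the 11 members at that time.

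GASA14 and SN1 were the members with bent libraries far above unbent ones at both early times. The GASA14 cluster (Cluster-9242.28628) held 2.34, 1.94 and 1.89 CPM before bending. At 1 h it held 10.1, 6.40 and 7.74 CPM in unbent and 20.1, 22.8 and 21.0 CPM in bent stems, and at 3 h 10.2, 7.37 and 8.23 CPM in unbent and 24.3, 22.7 and 27.0 CPM in bent stems. The log2 fold changes, bent minus unbent, were 1.40 ± 0.20 and 1.52 ± 0.19. Unbent stems were themselves 1.97 ± 0.24 and 2.06 ± 0.23 above the stems before bending at 1 and 3 h. At 24 h it held 3.18, 1.14 and 2.33 CPM in unbent and 1.41, 2.53 and 1.45 CPM in bent stems, and at 72 h 2.78, 2.90 and 4.15 CPM and 2.75, 2.96 and 2.92 CPM, and the groups overlapped. The highest group mean was 13.7 times the lowest, the widest span of the 11 members. Bent stems of 3 h and 1 h overlapped at the top, unbent stems of 3 h and 1 h overlapped next, and a gap separated them from the other 5 groups.

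The larger SN1 cluster (Cluster-9242.30643), named for snakin-1, an antimicrobial peptide of potato, held 13.5, 8.79 and 11.03 CPM before bending. At 1 h it held 13.2, 14.9 and 13.9 CPM in unbent and 28.5, 23.7 and 24.3 CPM in bent stems, and at 3 h 16.2, 13.4 and 12.9 CPM in unbent and 34.3, 34.7 and 29.3 CPM in bent stems. Its bent minus unbent log2 fold changes were 0.86 ± 0.15 and 1.21 ± 0.14. Its unbent stems were 0.34 ± 0.15 and 0.35 ± 0.15 above the stems before bending at these times, which did not pass. The bent libraries of 24 h, at 12.8, 9.37 and 12.3 CPM, lay above the unbent ones, at 8.57, 6.61 and 5.94 CPM, by 0.70 ± 0.16, which did not pass. At 72 h unbent stems held 9.22, 7.03 and 10.496 CPM and bent stems 9.11, 8.31 and 10.7 CPM, with overlap, and the log2 fold change was 0.07 ± 0.16 (edgeR adjusted p of 0.996).

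Unbent stems of 24 h held the least SN1 of the 9 groups, 7.04 ± 1.37 CPM. The log2 difference from before bending was -0.65 ± 0.16, and bent stems of 24 h, at 11.5 ± 1.85 CPM, stood beside the 11.1 ± 2.33 CPM of stems before bending. It passed with all libraries but not without replicate 1 before bending (-0.50) or replicate 3 of the unbent stems at 24 h (-0.55). The smaller SN1 cluster (Cluster-9242.10266), at 2.00 to 7.04 CPM, passed in none of the comparisons. Its bent libraries lay above the unbent ones at 1 and 3 h, by 0.62 ± 0.26 and 0.66 ± 0.26.

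**Figure D3:**
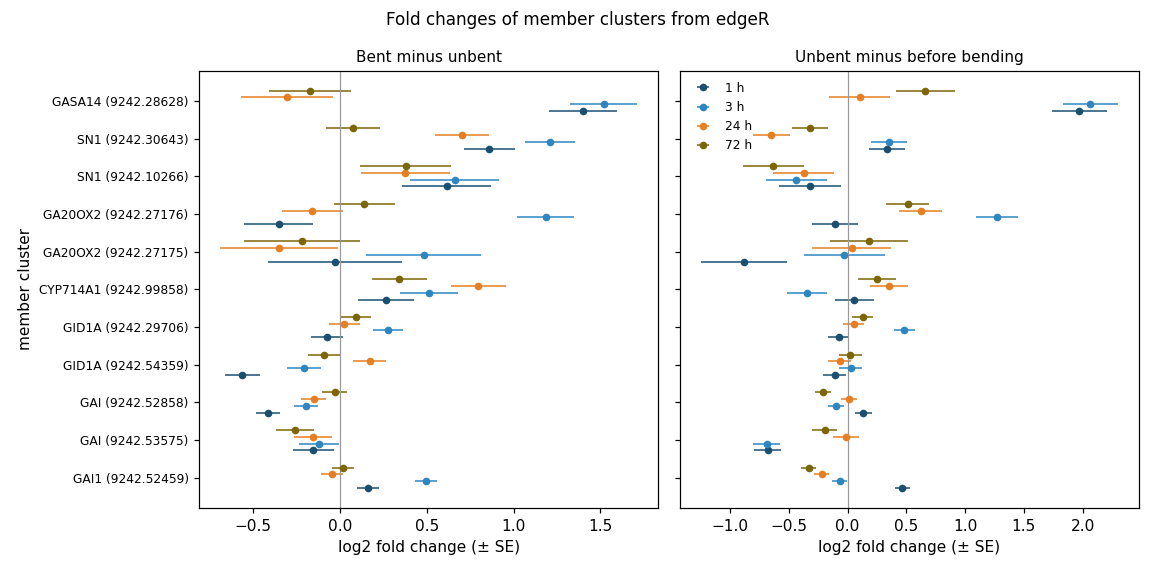
Log2 fold changes of the 11 member clusters from edgeR, with bent minus unbent stems on the left and unbent stems minus stems before bending on the right, at 1, 3, 24 and 72 h (colours). Points are estimates and bars ± 1 SE; GASA14 is at 1.40 and 1.52 on the left and at 1.97 and 2.06 on the right at 1 and 3 h.

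At 72 h, bent against unbent, the 11 members had log2 fold changes of -0.26 to 0.38 with a median of 0.02, against a median of 0.00 over all 52918 clusters. None passed in edgeR, and 2 members, CYP714A1 and the GAI cluster that was low at 1 and 3 h, had an unadjusted p under 0.05, as had 2883 of all clusters. DESeq2 called 7 and limma-voom 0 of all clusters at 72 h, and no member. Over 24 and 72 h together, a description because it holds the 24 h libraries, no member passed in edgeR, where 0.00567% of all clusters did (0.00378% higher, 0.00189% lower), and 4 had an unadjusted p under 0.05, as had 2994 of all clusters. DESeq2 called 1 member and 35 of all clusters there. Unbent against before bending, 3 members passed at 1 h (2 higher, 1 lower), where 10.3% of all clusters did (6.46% higher, 3.85% lower), and 4 at 3 h (3 higher, 1 lower), where 14.1% did (8.24% higher, 5.88% lower). At 24 h 3 members passed (1 higher, 2 lower), where 8.4% did (4.66% higher, 3.75% lower), and at 72 h 2 (both lower), where 10.3% did (5.58% higher, 4.76% lower).

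Across the 9 group means, which share the same libraries, the members followed several courses. GASA14 correlated with the larger SN1 cluster at a Pearson r of 0.92 and with GAI1 at 0.84, and with the smaller GAI cluster at -0.92. The larger GA20OX2 cluster correlated with the larger GID1A cluster at 0.98, both being highest in bent stems of 3 h. CYP714A1 had r between -0.40 and 0.33 to the other 10 members, and the larger GAI cluster had r between -0.46 and 0.38. These are descriptions over 9 points and carry no test.

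Outside gibberellin genes, the clusters most like each member in log2 CPM over the 9 group means were taken from 14012 named clusters with a mean of at least 5 CPM. For GASA14 they were CBP, a calcium-binding protein (r of 0.991), PRA1B1 (0.990) and SGT1A (0.989). The closest to the larger SN1 cluster were bphD (0.989) and mag2 (0.982), named after proteins of a bacterium and a yeast, and UGPA, which makes UDP-glucose (0.978). CKL4, a casein kinase (0.981), PBL27, a receptor-like kinase (0.979), and the F-box protein At5g07610 (0.976) were closest to the larger GA20OX2 cluster. ITN1 (0.929), HISN7 (0.889) and HIPP20 (0.883) were closest to CYP714A1. At4g19900 (0.986), ORP1D (0.985) and the kinase SRK2D (0.983) were closest to the larger GID1A cluster. At4g37920 (0.918), RE2 (0.887) and CHR28 (0.884) were closest to the larger GAI cluster, and UGT80B1 (0.991), WRKY19 (0.989) and LRX4 (0.987) to GAI1. The group means of UGPA and CBP spanned only 0.30 and 1.04 log2 units, while the larger SN1 cluster spanned 4.66-fold and GASA14 13.7-fold. LRX4 spanned 2.43 log2 units, while GAI1 spanned 1.95-fold.

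The rest of the pathway was read from lists that hold no member, with 67 matched clusters, 48 of them abundant enough to be tested. Bent against unbent, 2 of the 48 passed at 1 h (1 higher, 1 lower), where 1.93% of all clusters did, and 9 at 3 h (4 higher, 5 lower), where 5.08% did. None passed at 24 h, at 72 h or over both, where 0.0246%, 0% and 0.00567% of all clusters did. The median log2 fold change of the 48 was -0.03 at 1 h and -0.18 at 3 h, against 0.00 and 0.01 over all clusters. Among the 48, 10 had an unadjusted p under 0.05 at 24 h and 6 at 72 h, as had 3269 and 2883 of all 52918 clusters. Leaving out replicate 1 of the bent stems took the count at 3 h from 9 to 4.

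Of the early synthesis genes, KO and 1 KAO2 cluster were lower in bent stems at 3 h. KO, the ent-kaurene oxidase (Cluster-9242.33729), fell from 34.0 ± 2.20 CPM in unbent to 20.7 ± 1.80 CPM in bent stems (log2 fold change of -0.72 ± 0.09, edgeR adjusted p of 3.66e-07). KAO2, the next oxidase of the route (Cluster-9242.77123), fell from 35.7 ± 3.37 to 27.1 ± 4.02 CPM (-0.40 ± 0.11, edgeR adjusted p of 0.0276). These were 2 of 8 synthesis clusters tested, and the other 6, of KO, KAO2, GA2 and GA20OX1, did not pass. The larger GA20OX2 cluster was thus higher at 3 h in bent stems in the same libraries in which KO and KAO2 were lower. A further 5 synthesis clusters were added after the annotation was read, of LE (the pea name of the oxidase that forms active gibberellin), KAO and At5g51310. Of these, 1 passed in bent against unbent stems at 3 h and none at 1, 24 or 72 h. It was At5g51310 (Cluster-9242.77851), at 6.91 ± 2.05 CPM in unbent and 11.3 ± 0.986 CPM in bent stems (0.70 ± 0.19, edgeR adjusted p of 0.0188). At 1 h it was at 9.83 ± 1.59 CPM in unbent and 10.4 ± 0.294 CPM in bent stems. Unbent stems of 1 h were 0.89 ± 0.20 above those before bending on the log2 scale, which passed (edgeR adjusted p of 0.00106). Against before bending, unbent stems held more KO at 24 and 72 h (log2 fold changes of 0.40 ± 0.09 and 0.42 ± 0.09), more of a further KAO2 cluster (Cluster-9242.77124) at 3 and 24 h (0.42 ± 0.15 and 0.61 ± 0.15) and more GA2, the ent-kaurene synthase (Cluster-9242.63488), at 72 h (0.68 ± 0.17), and each of these passed.

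Several clusters of the GA2OX family, enzymes that inactivate gibberellins, were scarce before bending and rose by 1 or 3 h without bending. None of the 11 turnover clusters passed in bent against unbent stems. In unbent stems of 1 h, GA2OX2 (Cluster-9242.8001) rose from 0.0670, 0.129 and 0.473 CPM before bending to 6.72, 4.85 and 11.01 CPM (log2 fold change of 4.94 ± 0.75, edgeR adjusted p of 9.48e-05). GA2OX1 (Cluster-27713.0) rose from 0.431 ± 0.150 to 2.78 ± 1.02 CPM (2.68 ± 0.58, adjusted p of 0.00142). Bent stems of 1 h held 23.5, 11.04 and 13.6 CPM of GA2OX2, each above the highest unbent library, and the difference did not pass. By 24 h GA2OX2 was at or below 0.543 CPM in all 6 libraries.

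At 3 h other turnover clusters were higher than before bending. In unbent stems, a further GA2OX1 cluster (Cluster-9242.64423) rose from 1.74 ± 0.713 to 7.19 ± 1.60 CPM (2.07 ± 0.28, edgeR adjusted p of 1.53e-07), and GA2OX8 (Cluster-9242.4134) rose from 1.37 ± 0.766 to 4.52 ± 2.13 CPM (1.71 ± 0.44, adjusted p of 0.00905). Bent stems of 3 h held 10.9 ± 0.593 CPM of GA2OX8, a difference of 1.27 ± 0.38 from unbent stems that did not pass (adjusted p of 0.0541). CYP714C2 (Cluster-9242.46835) fell in unbent stems at 1 h (-0.69 ± 0.17, edgeR adjusted p of 0.0082) and 3 h (-0.75 ± 0.17, adjusted p of 0.00362). GA2OX6 (Cluster-27369.0) fell at 24 h (-1.62 ± 0.41, adjusted p of 0.00672) and 72 h (-1.21 ± 0.39, adjusted p of 0.0363).

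**Figure D4:**
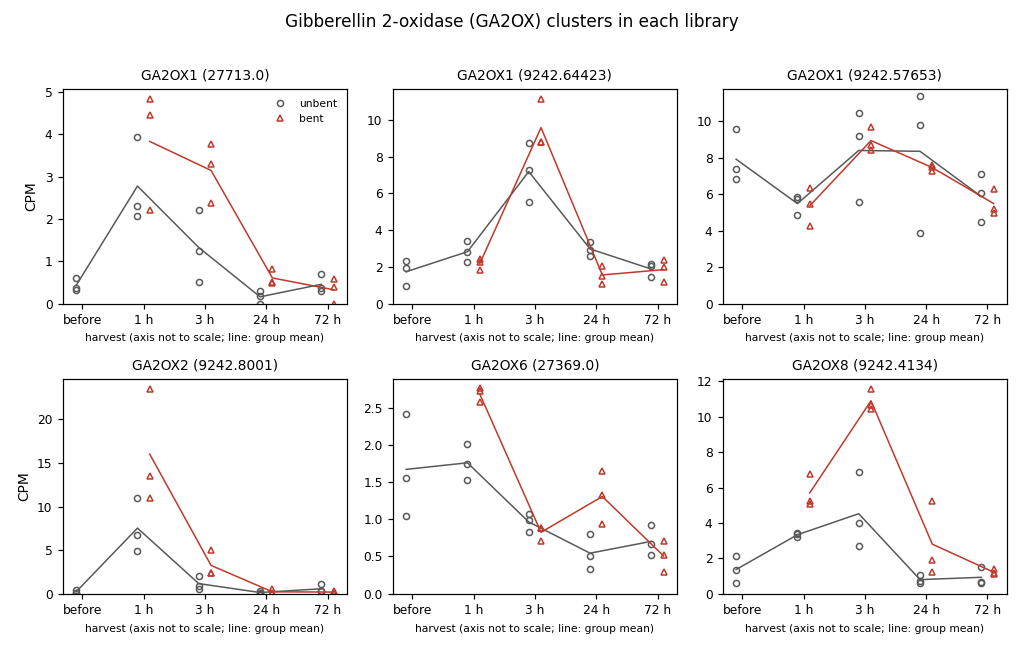
TMM-scaled CPM of the 6 GA2OX clusters by harvest, with linear axes from 0 and time not to scale. Circles are unbent and triangles bent libraries, and lines join group means; GA2OX2 reached 4.85 to 11.01 CPM in unbent and 11.04 to 23.5 CPM in bent stems at 1 h and was at or below 0.473 CPM before bending.

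The F-box protein that acts with the receptor was lower in bent stems at both early times. GID2 (Cluster-9242.55608) was at 42.1 ± 0.565 CPM in unbent and 32.7 ± 1.44 CPM in bent stems at 1 h (-0.36 ± 0.08, edgeR adjusted p of 0.00735). At 3 h it was at 64.9 ± 7.50 CPM in unbent and 49.0 ± 4.82 CPM in bent stems (-0.41 ± 0.08, edgeR adjusted p of 0.000593). It was also lower in unbent stems of 1 h than before bending, by 0.65 ± 0.08 (edgeR adjusted p of 1.92e-08). The receptor GID1B (Cluster-9242.39743) was at 13.5 ± 0.824 CPM in unbent and 22.1 ± 6.56 CPM in bent stems at 3 h (0.70 ± 0.18, edgeR adjusted p of 0.0157). At 1 h it was at 29.3 ± 4.12 CPM in unbent and 41.0 ± 7.99 CPM in bent stems, a difference that did not pass. Against before bending, this cluster and a further GID1B cluster (Cluster-9242.73300) rose in unbent stems of 1 h, by 1.02 ± 0.18 and 1.01 ± 0.15. The first of them fell at 24 h (-1.02 ± 0.19) and both fell at 72 h (-0.56 ± 0.18 and -0.77 ± 0.16). The SNE clusters did not pass in any comparison.

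Bent against unbent, none of 13 DELLA and signalling clusters passed at 1 h and 2 did at 3 h. SCL3 (Cluster-9242.72920), which acts against DELLA proteins in Arabidopsis, was at 30.2 ± 1.60 CPM in unbent and 19.5 ± 1.25 CPM in bent stems (-0.63 ± 0.10, edgeR adjusted p of 2.4e-05). GAM1 (Cluster-9242.10242), a gibberellin-responsive MYB factor of rice, was at 9.97 ± 0.538 CPM in unbent and 14.5 ± 0.739 CPM in bent stems (0.54 ± 0.16, edgeR adjusted p of 0.0302). Before bending GAM1 held 5.28 ± 1.31 CPM, and every unbent library of 3 h lay above every library before bending. Another SCL3 cluster (Cluster-9242.10166) was at 16.4 ± 2.92 CPM in unbent and 18.2 ± 3.15 CPM in bent stems at 3 h. It did not pass in bent against unbent stems, nor did GAIP, a further DELLA name, SPY, SEC, GAMYB or MYB101. At 1 h 2 of the 13 clusters passed in unbent stems against before bending, both lower, where 10.3% of all clusters did. The first SCL3 cluster (Cluster-9242.72920) held 33.8 ± 2.79 CPM before bending and 20.6 ± 2.25 CPM in unbent stems of 1 h. In unbent stems against before bending, SEC (Cluster-9242.39170), which modifies DELLA proteins, fell at 3, 24 and 72 h, by 0.36 ± 0.08, 0.46 ± 0.08 and 0.41 ± 0.08, while a further SEC cluster (Cluster-9242.27825) rose, by 0.54 ± 0.13, 0.53 ± 0.12 and 0.38 ± 0.12. GAMYB (Cluster-9242.47482) fell by 0.32 ± 0.07 at 3 h and rose by 0.29 ± 0.07 at 72 h.

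Other peptides of the GASA family went in both directions. Bent against unbent, 1 of 11 clusters passed at 1 h and 3 at 3 h. SN2 (Cluster-9242.63059), a snakin, was at 141 ± 9.49 CPM in unbent and 179 ± 15.2 CPM in bent stems at 1 h (0.35 ± 0.09, edgeR adjusted p of 0.0214). At 3 h it was at 125 ± 4.43 CPM in unbent and 177 ± 12.5 CPM in bent stems (0.50 ± 0.09, edgeR adjusted p of 0.000217). Before bending this cluster held 98.0 ± 7.44 CPM, and at 72 h unbent stems held 159 ± 13.4 CPM. Every unbent library of 1, 3 and 72 h lay above every library before bending. A further SN2 cluster (Cluster-9242.14220) was at 39.3 ± 15.5 CPM in unbent and 94.1 ± 18.4 CPM in bent stems at 3 h (1.26 ± 0.26, edgeR adjusted p of 0.00601). In unbent stems of 3 h it was 2.25 ± 0.29 above before bending (edgeR adjusted p of 1.8e-05). GASA4 (Cluster-9242.54200) was at 43.9 ± 10.6 CPM in unbent and 29.1 ± 3.93 CPM in bent stems at 3 h (-0.60 ± 0.15, edgeR adjusted p of 0.0255). Unbent against before bending, 2, 4, 3 and 4 of the 11 clusters passed at 1, 3, 24 and 72 h, all higher. Of all clusters, 10.3%, 14.1%, 8.4% and 10.3% passed there, in either direction. Without bending, GASA12 (Cluster-9242.43810) rose at all 4 harvests, by 0.28 ± 0.08, 0.45 ± 0.08, 0.84 ± 0.08 and 0.58 ± 0.08, and GAST1 (Cluster-9242.58306) rose at 24 and 72 h, by 0.83 ± 0.14 and 0.65 ± 0.14. GASA4, which was lower in bent stems at 3 h, rose in unbent stems at 24 and 72 h, by 0.67 ± 0.15 and 0.52 ± 0.15. GASA6 and RSI-1 did not pass in bent against unbent stems.

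**Figure D5:**
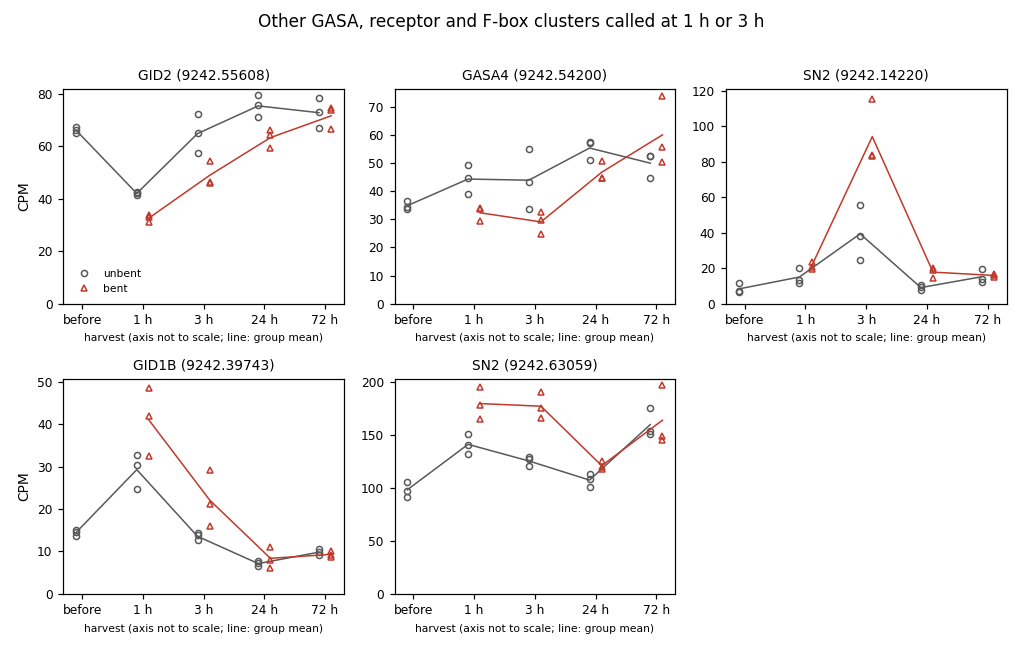
TMM-scaled CPM of the GID2, GID1B, GASA4 and 2 SN2 clusters that passed in bent against unbent stems at 1 or 3 h, by harvest, with linear axes from 0 and time not to scale. Circles are unbent and triangles bent libraries, and lines join group means; at 3 h the bent mean of an SN2 cluster (Cluster-9242.14220) is 94.1 CPM and the unbent mean 39.3 CPM.

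Unbent stems against before bending, 10 of the 48 pathway clusters passed at 1 h (6 higher, 4 lower), where 10.3% of all clusters did, and 12 at 3 h (9 higher, 3 lower), where 14.1% did. At 24 h 11 passed (7 higher, 4 lower), where 8.4% of all clusters did, and at 72 h 12 (8 higher, 4 lower), where 10.3% did. All 11 members and the pathway lists were chosen with results of these libraries known, and the comparisons at 1 time share the same unbent libraries. Bent minus unbent and unbent minus before bending are therefore not independent of each other, and only each comparison's own values are given.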

How the data were processed

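Poly(A) RNA of whole stems gave paired-end libraries with reads of 150 bases, per the labels' protocols. The deposited table holds expected counts per assembled cluster, for which the submitters' processing notes name RSEM 1.2.28, and 8.05% of its values were not whole. They were rounded. The authors' second table gives FPKM, used for levels between genes and, as log2(FPKM + 0.1) and log2(FPKM + 1), for alternatives. The assembler and strand setting are not given in the sources used here.

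In R 4.3.3, edgeR 4.0.16 kept clusters by filterByExpr on the 9 groups, scaled by TMM and ran its quasi-likelihood test (robust) on the 27 libraries in 1 fit, with a term for every group. The estimated common biological variation (BCV) was 0.158. An SE is the log2 fold change divided by the square root of F. Alternatives used DESeq2 1.42.0 and limma 3.58.1, other filters, fewer libraries and replicate numbers as a block. Tables were made in Python 3.11.15 with pandas 2.3.3. No pair of libraries in a group was a duplicate (chi-square per degree of freedom of 4.68 to 20.7). A p-value sets a difference against the spread between replicates within groups, estimated from all 27 libraries with information shared across clusters.

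Members and lists were chosen with earlier results of these data known. Members' differences at 24 h, bent against unbent and unbent against before bending, were planned as tests. They are given as a description, because CYP714A1 was the only member that passed in the first and both share the unbent libraries. For each name, the cluster with the largest total and each member that passed in a bent against unbent comparison are given by library, and of each list up to 4 clusters that passed per comparison. In unbent stems against before bending, not every list cluster that passed is named. At 1.5 times the median, the limit for libraries rich in ribosomal RNA marks 3. The script was tested on simulated data.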

Additional observations from a re-analysis of the deposited data

How the results depend on the processing

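Of 21 fold changes of members that passed in a comparison, 336 values under the alternatives were computed, of which 305 kept their call, 31 lost it and 0 changed sign. The lost calls belong to CYP714A1 at 24 h and to GA20OX2, SN1, GAI and GAI1 in unbent stems of 24 or 72 h. Members bent against unbent at 24 h numbered 1, and 2 with no filter, in DESeq2 or with a replicate block, but 0 with the stricter filter (at least 1 CPM in 3 libraries and a total of 100), with either FPKM setting or without the libraries rich in ribosomal RNA, and 0 to 1 with a library left out. Over 24 and 72 h together they numbered 0, and 2 with no filter, 1 in DESeq2 and 0 to 1 with a library left out. Members in unbent stems numbered 3 at 24 h and 0 to 3 with a library left out, with 0 without replicate 1 before bending and 1 without replicate 2 or 3 of the unbent stems. At 72 h they numbered 2, and 1 in DESeq2, with either FPKM setting or with only the groups compared, and 1 to 2 with a library left out.

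Pathway clusters bent against unbent at 1 h numbered 2, and 4 with no filter, 1 in limma-voom, with either FPKM setting or without the libraries rich in ribosomal RNA, and 1 to 2 with a library left out. At 3 h they numbered 9, and 4 to 13 with a library left out. At 24 h they numbered 0, and 1 with no filter or only the groups compared, and 0 to 2 with a library left out. At 72 h and over both late times they numbered 0, and 1 with no filter, and 0 to 1 over both late times with a library left out. The causes were not tested. Deviations of same-numbered libraries correlated at -0.147 to 0.245 over 24 pairs, with 4 over 0.1. All pairs of a comparison were over 0.1 in 0 of 8 comparisons, and the main fit did not pair the samples by number. For bent against unbent stems at 1, 3, 24 and 72 h, 1, 6, 3 and 2 of 6 libraries correlated best with their own number. For unbent stems against before bending at these times, 6, 2, 0 and 2 did. All 6 did so in bent against unbent at 3 h and in unbent at 1 h against before bending. These values therefore do not settle whether the numbers pair the samples. The replicate block left all other counts within 1.5 times. Members had totals of 1069 to 84960 counts over the 27 libraries, lowest for the smaller GA20OX2 cluster.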
